A study of Mus musculus with 4 samples.

Results

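The 10 genes described here govern the passage of cells out of G1, the phase before DNA synthesis. They are the cyclin genes Ccnd1, Ccnd2, Ccnd3 and Ccne1, the CDK inhibitor genes Cdkn1a, Cdkn1b, Cdkn1c and Cdkn2a, and the tumor suppressor genes Rb1 and Trp53. They were taken from a list of gene symbols built around the targets of large T antigen, and all 10 were found among the 18091 genes of the value table. Expression was measured on Illumina MouseRef-8 v2.0 arrays in 2 insulinomas of sEphB4-Alb treated RT2 mice and in 2 insulinomas of PBS treated RT2 mice. sEphB4-Alb, the soluble extracellular part of the receptor EphB4 joined to albumin, was given at 10 mg/kg, and both groups (6 mice each) were injected intraperitoneally 3 times per week from 10 weeks of age until tumors were taken at 13.5 weeks. All mice, PBS treated ones included, were Rip1Tag2 transgenics drinking 5% sugar water from 12 weeks of age, and the methods name Dll4+/+ animals. The transgene places SV40 large T antigen under the insulin promoter, so the oncogene is active in insulin-producing cells. Sample labels name CD1 and C57/BL6 backgrounds together, the series design gives C57/BL6 alone, and the methods place sEphB4-Alb treated RT2 Dll4+/+ mice on CD1 and those of later drug trials on C57BL6. The labels do not tie tumors to animals, so a p-value here reflects the spread among these 4 tumors and nothing wider.

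D-type cyclins bind CDK4 and CDK6, cyclin E binds CDK2, and the kinases so formed phosphorylate the retinoblastoma protein Rb, which then lets go of E2F transcription factors that switch on genes of DNA synthesis. INK4 proteins such as the p16INK4a product of Cdkn2a inhibit CDK4 and CDK6, and Cip/Kip proteins (the products of Cdkn1a, Cdkn1b and Cdkn1c) inhibit cyclin-CDK2 complexes. The p53 protein, encoded by Trp53, induces Cdkn1a, and large T antigen binds and inactivates both p53 and proteins of the Rb family. Cyclin D2 is known in mice as the D-type cyclin on which the expansion of beta cells after birth chiefly depends.

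Promoter windows are shown for Cdkn1a, as the gene of the set that p53 induces, and for Cdkn2a, as a gene with 2 annotated starts that encode different proteins but a single array value. The windows hold the 250 bases before each start, read 5′ to 3′ on the strand of the gene, and come from RefSeq on GRCm38.p6. Capitals mark p53 half-sites and a doubled p53 core in the first Cdkn1a window, GGGCGG (the Sp1 motif) in the second Cdkn1a window and the E2F motif TTTCCCGC in the first Cdkn2a window. The second Cdkn2a window carries no capitals.
Cdkn1a, start 1, chr17:29090729-29090978, plus strand: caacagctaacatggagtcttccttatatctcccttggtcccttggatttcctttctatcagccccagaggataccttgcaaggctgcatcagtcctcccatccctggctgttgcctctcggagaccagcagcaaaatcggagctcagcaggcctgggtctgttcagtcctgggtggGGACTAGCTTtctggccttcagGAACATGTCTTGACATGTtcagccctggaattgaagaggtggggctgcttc
Cdkn1a, start 2, chr17:29093519-29093768, plus strand: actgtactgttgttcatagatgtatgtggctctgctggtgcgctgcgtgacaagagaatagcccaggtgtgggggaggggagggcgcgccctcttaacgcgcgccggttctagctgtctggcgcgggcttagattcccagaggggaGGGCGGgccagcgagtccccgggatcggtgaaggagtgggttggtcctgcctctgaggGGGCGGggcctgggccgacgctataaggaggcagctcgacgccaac
Cdkn2a, start 1, chr4:89294620-89294869, minus strand: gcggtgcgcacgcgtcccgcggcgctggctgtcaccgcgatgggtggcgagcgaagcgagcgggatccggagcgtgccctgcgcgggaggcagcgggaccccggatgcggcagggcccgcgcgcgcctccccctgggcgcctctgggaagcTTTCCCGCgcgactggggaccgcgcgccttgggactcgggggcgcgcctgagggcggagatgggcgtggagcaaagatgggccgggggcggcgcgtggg
Cdkn2a, start 2, chr4:89282193-89282442, minus strand: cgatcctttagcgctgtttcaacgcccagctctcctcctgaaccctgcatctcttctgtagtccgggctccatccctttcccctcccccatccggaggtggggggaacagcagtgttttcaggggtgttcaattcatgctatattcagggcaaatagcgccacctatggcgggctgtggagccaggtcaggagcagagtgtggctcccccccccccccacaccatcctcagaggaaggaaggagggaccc
The first Cdkn1a window has p53 half-sites that begin 73 and 51 bases before the start. The second of these opens into the doubled core, ACATGT repeated after a gap of 4 bases (here ACATGTCTTGACATGT), a motif chosen after the sequence was seen. Over all 32851 RefSeq windows of this length, on both strands, 7.126% hold a p53 half-site and 0.01218% (4 windows) hold the doubled core. The first Cdkn2a window also holds GGGCGG, left in lower case there, at 48 and 14 bases before the start. In the same window TTTCCCGC lies 99 bases before the start, and 1.86% of all windows hold it or one of TTTCGCGC, TTTGCCGC and TTTGGCGC. GGGCGG is held by 32.74% of all windows. Of the 10 genes, 6 have entries in the promoter table, with 9 windows in all, and Trp53 is the only other gene among them with a p53 half-site, 75 bases before its start. These are matches of letters and not measured binding sites. Which of the Cdkn2a transcripts the array reads is unknown.

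The arrays differed in ways that touch every comparison below. Median signals were 160 and 169 on the sEphB4-Alb arrays and 136 and 142 on the PBS arrays. After background correction, quantile normalization and log2, PBS tumor 1 correlated less with the other 3 tumors (r = 0.945 to 0.953 across genes) than those did with each other (0.975 to 0.979). Xist, the RNA that silences an X chromosome in female cells, had a signal of 398 and 914 in sEphB4-Alb tumors and 131 and 123 in PBS tumors, above background on both sEphB4-Alb arrays and on neither PBS array. The Y-linked gene Ddx3y had 149 and 243 in sEphB4-Alb tumors and 327 and 724 in PBS tumors. Of the other Y-linked genes on the array, Uty differed by -0.07, and Eif2s3y and Jarid1d were above background in PBS tumor 1 alone. The labels do not give the sex of the animals, while a legend of the study calls the mice of this treatment scheme male. In these 4 tumors the Xist and Ddx3y signals and the treatment cannot be told apart.

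A gene was tested by limma where its signal exceeded the array background in both tumors of at least 1 group, which 10370 genes did. All 10 G1 genes passed, each above background on all 4 arrays. Differences are given as mean log2 in sEphB4-Alb tumors minus mean log2 in PBS tumors. No gene of the set reached an adjusted p under 0.05 in limma, and 0% of all genes tested did. At an unadjusted p under 0.05, Ccnd2 and Cdkn1a were higher (3.79% of all genes were) and Cdkn1c was lower (2.67% of all genes were). Ccnd2 was the 1 gene of the set that was also at least 2-fold higher, as were 0.984% of all genes, and none was 2-fold lower at that p, as were 0.164%. Every sEphB4-Alb value exceeded every PBS value for Ccnd1, Ccnd2 and Cdkn1a (18.5% of all genes) and lay under every PBS value for Cdkn1c (20.8%), and the groups overlapped for the other 6. The median log2 difference over the 10 genes was 0.02, against -0.02 over all genes tested. In bulk tumor RNA, fewer cells of a type and less RNA per cell cannot be told apart.

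**Figure D1:**
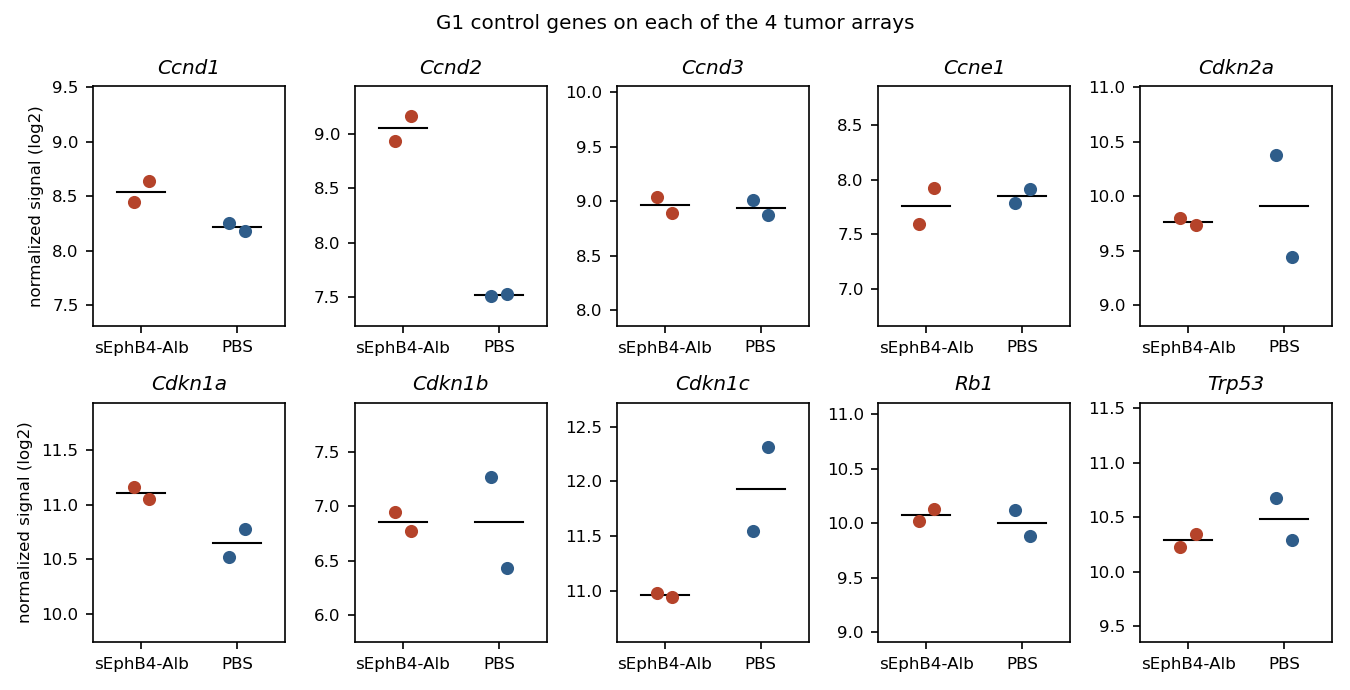
Normalized log2 signal of each of the 10 genes (y axis) in the sEphB4-Alb tumors and the PBS tumors (x axis), with 1 point per tumor and a bar at each group mean. Ccnd2 lies at 8.94 and 9.17 in sEphB4-Alb tumors and at 7.51 and 7.53 in PBS tumors, and Cdkn1c at 10.98 and 10.94 in sEphB4-Alb tumors and at 11.55 and 12.31 in PBS tumors.

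Among the cyclins, the largest difference was that of Ccnd2, which encodes cyclin D2. Its deposited signal was 625 and 917 in sEphB4-Alb tumors and 178 and 226 in PBS tumors. On the normalized log2 scale it was 8.94 and 9.17 in sEphB4-Alb tumors and 7.51 and 7.53 in PBS tumors. Both sEphB4-Alb tumors were high and both PBS tumors were low, and the gap between the groups was far wider than the gap within either. The means were 9.05 ± 0.16 in sEphB4-Alb tumors and 7.52 ± 0.02 in PBS tumors (SD, n = 2 tumors each), a log2 difference of 1.53 (limma, standard error 0.17, 95% confidence interval 1.09 to 1.97, unadjusted p = 3.2e-04, adjusted p = 0.713) or 2.89-fold. In the order of log2 differences Ccnd2 stood 75th from the top of the 10370 genes. With each tumor left out in turn its difference was 1.37 to 1.64. It was lowest, at 1.299, with no background correction, and it was 1.92 with median scaling and 2.25 with no normalization between arrays. The unadjusted limma p was 0.00574 without moderation of the variances. The PBS signals of Ccnd2 exceeded the background limits of 134 and 133 on the PBS arrays, but lay nearer to them than the sEphB4-Alb signals lay to theirs.

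Ccnd1 encodes cyclin D1, a D-type cyclin that growth factor signaling induces in many tissues. Its normalized log2 signal was 8.45 and 8.64 in sEphB4-Alb tumors and 8.26 and 8.19 in PBS tumors. The groups did not overlap, but the difference of 0.32 (limma, standard error 0.16, 95% confidence interval -0.11 to 0.75, unadjusted p = 0.110, adjusted p = 0.746) had an interval that included 0. With median scaling it was 0.76 (limma unadjusted p = 0.0384), and with no normalization between arrays it was 1.09 (limma unadjusted p = 0.0214). Ccnd3, the gene of cyclin D3, was at 9.04 and 8.90 in sEphB4-Alb tumors and at 9.01 and 8.88 in PBS tumors, and its tumors interleaved. The difference was 0.03 (95% confidence interval -0.40 to 0.45, limma adjusted p = 0.976). It was 0.50 (limma unadjusted p = 0.0979) with median scaling and 0.83 (limma unadjusted p = 0.0460) with no normalization between arrays, without overlap in either. Ccne1, the gene of cyclin E1, was at 7.60 and 7.92 in sEphB4-Alb tumors and at 7.79 and 7.92 in PBS tumors, where sEphB4-Alb tumor 1 was the low sample. Its difference was -0.09 (95% confidence interval -0.58 to 0.40, limma adjusted p = 0.923), and it turned to 0.27 with median scaling and 0.60 with no normalization between arrays. After quantile normalization the D-type cyclins covered differences of 0.03 to 1.53, with intervals that included 0 for Ccnd1 and Ccnd3.

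Differences between genes within an array do not change when a constant is added to all its log2 signals, as in median scaling. A factor on the deposited signals does not cancel fully, because background correction adds an offset of 50. The differences were taken from background-corrected log2 signals before any normalization between arrays. They therefore do not equal differences of the quantile-normalized values above. They show unequal change only, since signals of different genes are not comparable as levels, and the pairs below were picked after their values were seen. Ccnd2 minus Ccnd1 was 0.49 and 0.55 on the log2 scale in sEphB4-Alb tumors and -0.62 and -0.67 in PBS tumors, a shift of 1.16. Ccnd2 minus Ccnd3 was -0.10 and 0.28 in sEphB4-Alb tumors and -1.30 and -1.37 in PBS tumors, a shift of 1.42. In both pairs Ccnd2 stood higher relative to the other D-type cyclin in each sEphB4-Alb tumor than in each PBS tumor. Ccnd2 was already known as the D-type cyclin with the largest difference, so an upward shift in both pairs was largely fixed in advance. Ccnd1 minus Ccnd3 shifted by 0.26, with -0.59 and -0.28 in sEphB4-Alb tumors and -0.68 and -0.71 in PBS tumors.

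Of the Cip/Kip inhibitors, Cdkn1a was higher and Cdkn1c was lower in sEphB4-Alb tumors. Cdkn1a encodes p21, the inhibitor through which p53 halts cells in G1. Its deposited signal was 2694 and 3257 in sEphB4-Alb tumors and 918 and 1785 in PBS tumors. On the normalized log2 scale it was 11.16 and 11.05 in sEphB4-Alb tumors and 10.52 and 10.78 in PBS tumors. The groups did not overlap, and PBS tumor 1 was the lowest sample. The means were 11.11 ± 0.08 in sEphB4-Alb tumors and 10.65 ± 0.19 in PBS tumors (SD, n = 2 tumors each), a log2 difference of 0.46 (limma, standard error 0.18, 95% confidence interval 0.0006 to 0.91, unadjusted p = 0.0498, adjusted p = 0.742) or 1.37-fold. The unadjusted limma p passed 0.05 barely. It was 0.123 without PBS tumor 1, 0.0223 without PBS tumor 2, 0.228 without sEphB4-Alb tumor 1, 0.136 without sEphB4-Alb tumor 2 and 0.0839 without moderation of the variances. The difference was 0.92 (limma unadjusted p = 0.0402) with median scaling and 1.25 (limma unadjusted p = 0.0211) with no normalization between arrays.

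Cdkn1c encodes p57, a Cip/Kip protein whose gene is imprinted and expressed from the maternal copy. Its normalized log2 signal was 10.98 and 10.94 in sEphB4-Alb tumors and 11.55 and 12.31 in PBS tumors. Both sEphB4-Alb tumors were low and close together, and PBS tumor 2 was high above PBS tumor 1. The means were 10.96 ± 0.03 in sEphB4-Alb tumors and 11.93 ± 0.54 in PBS tumors (SD, n = 2 tumors each), a log2 difference of -0.97 (limma, standard error 0.29, 95% confidence interval -1.72 to -0.22, unadjusted p = 0.0208, adjusted p = 0.742), so that signal was 1.96-fold lower in sEphB4-Alb tumors. Cdkn1c stood 35th from the bottom of the 10370 genes. Its size depended on the PBS tumors, with -1.35 without PBS tumor 1 and -0.60 without PBS tumor 2. The unadjusted limma p was 0.0618 without sEphB4-Alb tumor 1, 0.0667 without sEphB4-Alb tumor 2 and 0.126 without moderation. The deposited signals, 2399 and 3018 in sEphB4-Alb tumors and 1827 and 4885 in PBS tumors, overlapped. The difference was -0.48 (limma, unadjusted p = 0.336) with median scaling and -0.15 (limma, unadjusted p = 0.774) with no normalization between arrays.

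Cdkn1b encodes p27, a Cip/Kip inhibitor that accumulates in resting cells, largely through the stability of the protein. Its deposited signal, 193 and 188 in sEphB4-Alb tumors and 162 and 133 in PBS tumors, was close to the background limits of 144 and 146 on the sEphB4-Alb arrays and 134 and 133 on the PBS arrays. The normalized log2 values were 6.94 and 6.77 in sEphB4-Alb tumors and 7.27 and 6.43 in PBS tumors, so that the PBS tumors lay on either side of the sEphB4-Alb tumors. The difference of 0.01 had a 95% confidence interval of -0.81 to 0.82 (limma adjusted p = 0.996), wide enough to include a 1.5-fold change in either direction. It was 0.18 with median scaling and 0.51 with no normalization between arrays. Within arrays, again before normalization between them, Cdkn1a minus Cdkn1c was 0.17 and 0.11 in sEphB4-Alb tumors and -1.04 and -1.48 in PBS tumors. The shift was 1.40. This pair, picked after its values were seen, joins the Cip/Kip genes with the highest and the lowest difference, so a large shift was fixed in advance.

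**Figure D2:**
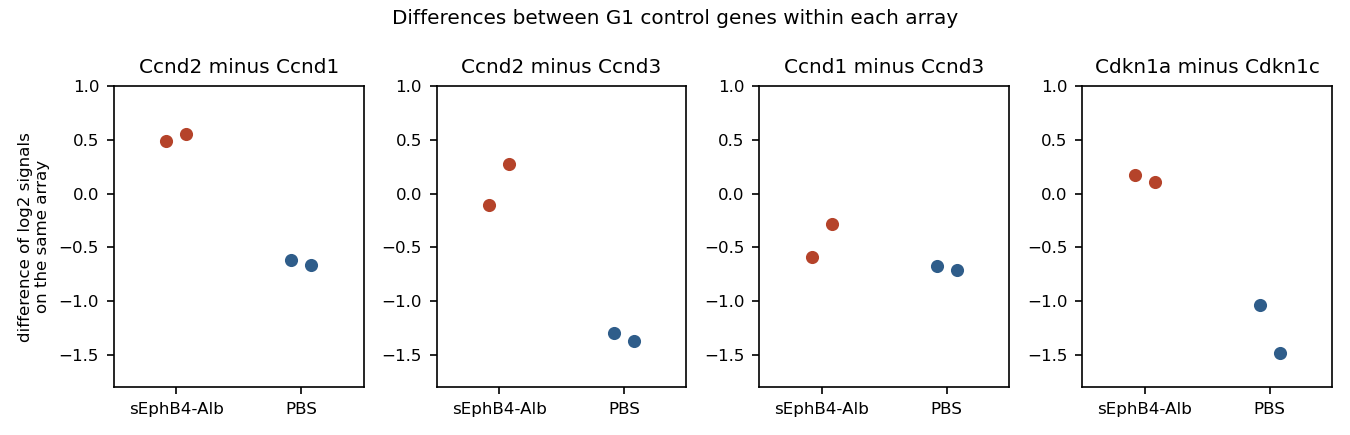
Differences in background-corrected log2 signal, before normalization between arrays, between pairs of genes on the same array (y axis) in the sEphB4-Alb tumors and the PBS tumors (x axis), with 1 point per tumor. For Ccnd2 minus Ccnd1 the points lie at 0.49 and 0.55 in sEphB4-Alb tumors and at -0.62 and -0.67 in PBS tumors.

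Cdkn2a encodes both the INK4 inhibitor p16INK4a and p19ARF, which shields p53 from degradation, and the array gives 1 value for the gene. Normalized log2 signals were 9.80 and 9.73 in sEphB4-Alb tumors and 10.38 and 9.44 in PBS tumors. The PBS tumors again lay on either side, with PBS tumor 1 the highest sample and PBS tumor 2 the lowest. The difference was -0.14 (limma, standard error 0.34, 95% confidence interval -1.02 to 0.74, adjusted p = 0.930), and its sign rested on PBS tumor 1, without which it was 0.32. It was 0.31 with median scaling and 0.64 with no normalization between arrays, without overlap in either.

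Rb1 and Trp53, the genes whose proteins large T antigen binds, had overlapping groups after quantile normalization. Rb1 was at 10.02 and 10.13 on the log2 scale in sEphB4-Alb tumors and at 10.12 and 9.89 in PBS tumors, a difference of 0.07 (limma, standard error 0.17, 95% confidence interval -0.38 to 0.51, adjusted p = 0.934). For Rb1 it was 0.52 (limma unadjusted p = 0.102) with median scaling and 0.85 (limma unadjusted p = 0.0475) with no normalization between arrays, without overlap in either. Trp53 was at 10.23 and 10.35 in sEphB4-Alb tumors and at 10.68 and 10.29 in PBS tumors, a difference of -0.20 (limma, standard error 0.20, 95% confidence interval -0.71 to 0.32, adjusted p = 0.826). PBS tumor 1 was the high sample for Trp53, and the difference was 0.26 with median scaling and 0.59 with no normalization between arrays. These arrays measure RNA, so phosphorylation of Rb and binding of either protein by T antigen were not measured. Before normalization between arrays, Cdkn1a minus Trp53 was 0.96 and 0.71 within sEphB4-Alb tumors and -0.14 and 0.50 within PBS tumors, without overlap but with PBS tumor 2 near the sEphB4-Alb tumors.

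Tumors within a group were farther apart in PBS than in sEphB4-Alb. The median gap between the tumors of a group over the 10 genes was 0.13 in sEphB4-Alb and 0.25 in PBS, against 0.16 in sEphB4-Alb and 0.28 in PBS over all genes tested. The widest PBS gaps among the 10 genes were those of Cdkn2a at 0.94, Cdkn1b at 0.84 and Cdkn1c at 0.76. PBS tumor 1 was the higher for Cdkn2a and Cdkn1b, and PBS tumor 2 for Cdkn1c. The inhibitor gene Cdkn1a had a PBS gap of 0.26, under that of Trp53 at 0.38. Ccnd2 had the narrowest PBS gap of the 10, at 0.02. The highest value of all 4 tumors lay in sEphB4-Alb tumor 1 for 2 of the 10 genes, in sEphB4-Alb tumor 2 for 4, in PBS tumor 1 for 3 (Cdkn1b, Cdkn2a and Trp53) and in PBS tumor 2 for 1.

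The way arrays were scaled moved the whole set. The median gene tested differed by -0.02 on the log2 scale after quantile normalization, by 0.26 after median scaling and by 0.59 without normalization between arrays. Relative to that median gene, Ccnd2 was at 1.66, Cdkn1a at 0.66, Ccnd1 at 0.50 and Cdkn1c at -0.74 after median scaling. Ccnd2, Cdkn1a and Ccnd1 were above the median gene and Cdkn1c below it under each scaling. Of the 10 genes, 6 were above the median gene after quantile normalization and 8 after median scaling.

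**Figure D3:**
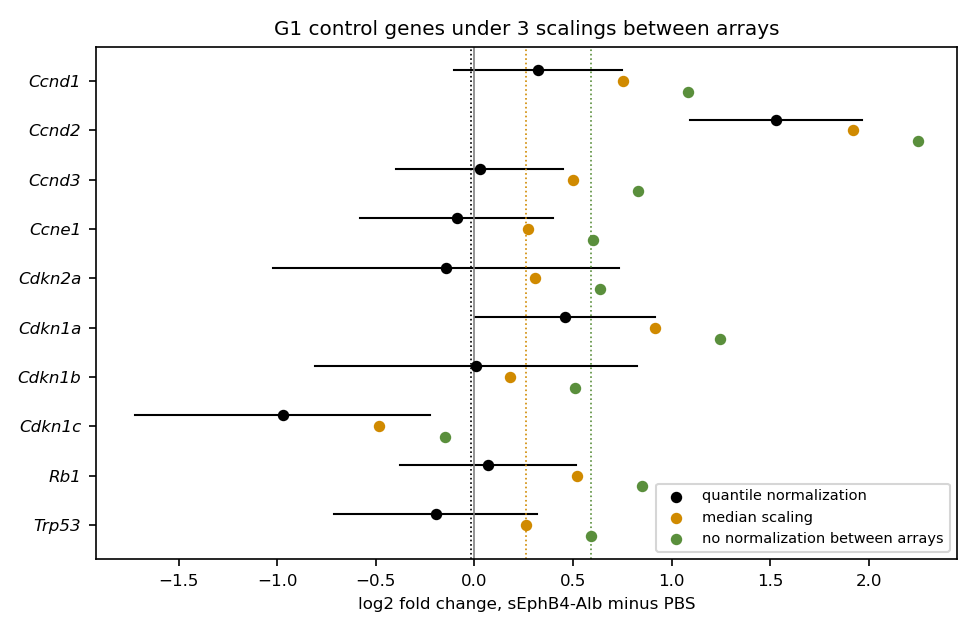
Log2 difference (x axis, sEphB4-Alb minus PBS) of each of the 10 genes (rows) under 3 ways of scaling the arrays, with 95% confidence intervals for quantile normalization and a dotted line at the median gene tested for each scaling. Ccnd2 lies at 1.53 after quantile normalization, to the right of every dotted line, and Cdkn1c at -0.97, -0.48 and -0.15 to the left of every dotted line.

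The other genes of the G1 pathway were read from a list of 32, of which 28 were in the value table and 21 were tested. Of these, 9 had a log2 difference above 0 and 12 below 0, 0 passed an unadjusted p of 0.05 in limma in either direction, and the median was -0.03 against -0.02 over all genes. Of the 21, 1 was higher and 5 were lower in sEphB4-Alb tumors without overlap, beside 18.5% and 20.8% of all genes. The 2 with the largest differences were Tfdp1, which encodes the DNA-binding partner of E2F proteins, at -0.64 (limma adjusted p = 0.746), and Cdkn2c, the gene of the INK4 inhibitor p18, at -0.62 (limma adjusted p = 0.746). Cdkn2c was at 10.45 and 10.16 in sEphB4-Alb tumors and at 11.27 and 10.57 in PBS tumors, with PBS tumor 1 the high sample. The E2F gene E2f2 was at -0.40 with overlapping groups, Cdc25a, whose phosphatase activates CDK2, at -0.36, and Mnat1, a subunit of the CDK-activating kinase, at -0.32. Cdkn2b, which encodes the INK4 inhibitor p15, was above background in sEphB4-Alb tumors only. It was tested on the strength of that group alone, which favored a higher value there. Its log2 difference was 0.31 (limma unadjusted p = 0.107), with a confidence interval of -0.10 to 0.71 that included 0. With the measured PBS values raised to the lowest signal above background, the sEphB4-Alb mean was 1.12-fold higher.

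The direct partners of the 10 genes that were tested had estimated differences close to 0 after quantile normalization, with wide intervals. Cdk2, the kinase partner of cyclin E, was at -0.03, and Rbl1, the gene of the Rb relative p107, was at -0.06. E2f1, the E2F family gene whose product Rb restrains, was at 0.06, and Mdm2, the ubiquitin ligase gene that p53 induces and that limits p53, at -0.07. For Cdk2, Rbl1, E2f1 and Mdm2 the groups overlapped. Ccne2, the gene of cyclin E2, was at 8.45 and 7.84 in sEphB4-Alb tumors and at 9.23 and 7.24 in PBS tumors, with the PBS tumors on either side of the sEphB4-Alb tumors. Cdk6 and Rbl2 were not above background on any array. Cdk4 was not analysed here.

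Regulators and targets of p53 other than Cdkn1a were about evenly divided between differences above and below 0. Of 5 regulators tested, 2 were above 0 and 3 below 0, and of 24 further targets 11 were above 0 and 13 below 0, with 0 past an unadjusted p of 0.05 in limma and a median over all 29 of -0.01. Without overlap, 6 of the 24 targets were higher in sEphB4-Alb tumors and 5 were lower, beside the same 18.5% and 20.8% of all genes. Fas, among the higher ones, was tested on the strength of the sEphB4-Alb group alone. Cd82, which encodes a tetraspanin, was at 10.49 and 9.86 in sEphB4-Alb tumors and at 9.36 and 9.70 in PBS tumors, a difference of 0.65 (limma adjusted p = 0.742). Gdf15, which encodes a stress-induced secreted factor, was at 10.00 and 8.45 in sEphB4-Alb tumors and at 7.98 and 9.04 in PBS tumors, so its difference of 0.71 came with overlapping groups and a wide spread in both. The checkpoint kinase gene Chek1 was at 0.48, Trp53bp1, a p53-binding DNA repair factor gene, at -0.39, and the kinase gene Plk3 at -0.38. Tnfrsf10b, a death receptor gene, was above background in PBS tumors only, and the PBS arrays had the lower background limits. Its deposited signal was 134 and 136 in sEphB4-Alb tumors and 141 and 136 in PBS tumors. Its log2 difference was -0.40 (limma unadjusted p = 0.0739), with a confidence interval of -0.86 to 0.06 that included 0. With the sEphB4-Alb values raised to the lowest signal above background, the normalized PBS mean was 1.20-fold higher.

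The E2F target genes of DNA synthesis lie downstream of Rb. Of 20 tested, 7 were above 0 and 13 below 0, with a median of -0.15 against -0.02 over all genes. Pcna, the sliding clamp of DNA polymerase, was at 7.38 and 7.95 in sEphB4-Alb tumors and at 6.98 and 6.83 in PBS tumors, higher by 0.76 (limma unadjusted p = 0.0267, adjusted p = 0.742). Cdca7 was lower, at -0.51 (limma unadjusted p = 0.0408, adjusted p = 0.742). These were the 2 genes of the list past an unadjusted p of 0.05, 1 in each direction, beside 3.79% of all genes higher and 2.67% lower. The replicative helicase subunit gene Mcm5 was at 11.92 and 12.13 in sEphB4-Alb tumors and at 12.95 and 12.32 in PBS tumors, a difference of -0.61, with PBS tumor 1 the high sample. Mcm7 was at 7.35 and 7.07 in sEphB4-Alb tumors and at 8.92 and 6.65 in PBS tumors, overlapping because PBS tumor 1 was highest and PBS tumor 2 lowest.

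**Figure D4:**
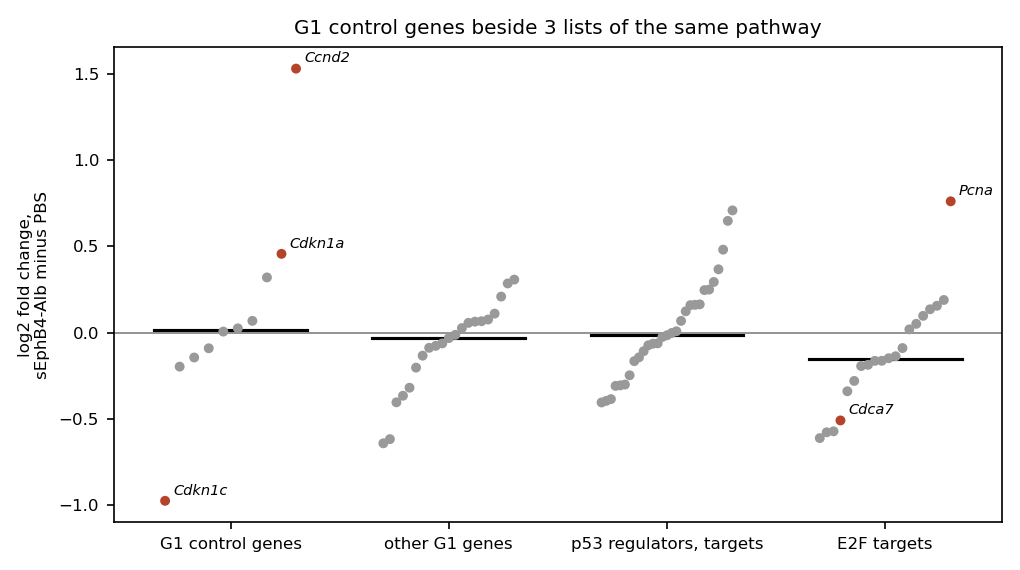
Log2 difference of each tested gene, sEphB4-Alb minus PBS, in the 10 G1 genes and in the lists of other G1 pathway genes, p53 regulators and targets and E2F target genes, with 1 point per gene, red where the unadjusted limma p was under 0.05, and a bar at the median of each list. List medians lie between -0.15 for the E2F targets and 0.02 for the 10 G1 genes.

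Markers of several cell types differed along with Ccnd2 and Cdkn1a. Beside the counts without overlap below, 18.5% of all genes were higher in both sEphB4-Alb tumors and 20.8% were lower in both. Some markers were above background in both sEphB4-Alb tumors but not in both PBS tumors. They were tested on the strength of the sEphB4-Alb group alone, which favored a higher value there. Among markers higher in both, these were Pdx1 and Nkx6-1 of the beta cell list and Krt19, Muc1, Sox9 and Cftr of the duct list. Pdgfrb and Notch3 of the pericyte list and Cd3e, Cd3g, Cd2 and Nkg7 of the T and NK cell list were others. Of 6 tested beta cell markers, 5 had both sEphB4-Alb values over both PBS values, and the summed normalized signal of the list was 25613 and 22843 in sEphB4-Alb tumors and 16193 and 17077 in PBS tumors, with Ins1 at 0.82 and Ins2 at 0.69. The beta cell markers Slc2a2 and Pcsk1 were above background on no array. Mafa and Ucn3 were not above background in both tumors of either group, and none of these was tested. Mean log2 was lower in sEphB4-Alb tumors for Mafa, Ucn3 and Slc2a2 and higher for Pcsk1, all near or under the background limits. The beta cell sum was carried mainly by Ins2 and Chga, and Chga overlapped between groups. The list median was 6.90 and 6.81 in sEphB4-Alb tumors and 6.62 and 6.55 in PBS tumors. Of 8 duct markers, 7 had both sEphB4-Alb values over both PBS values. The duct sum was 3027 and 3323 in sEphB4-Alb tumors and 1071 and 2150 in PBS tumors. Acinar markers summed to 19837 and 128805 in sEphB4-Alb tumors and 4351 and 28476 in PBS tumors, with 3 of 14 higher in both. Macrophage markers summed to 21867 and 17730 in sEphB4-Alb tumors and 27889 and 13376 in PBS tumors, with 8 of 11 higher in both. The macrophage sum was carried mainly by Lyz and Lyz2, whose groups overlapped. The macrophage list median was 8.41 and 8.34 in sEphB4-Alb tumors and 8.27 and 8.09 in PBS tumors. Pericyte and smooth muscle markers summed to 2959 and 2526 in sEphB4-Alb tumors and 2142 and 1834 in PBS tumors. Of 7 tested, 4 were higher in both and 1 was lower in both. T and NK cell markers summed to 937 and 840 in sEphB4-Alb tumors and 806 and 759 in PBS tumors. Of 6 tested, 4 were higher in both, none of them above background on a PBS array, and 1 was lower in both. Fibroblast markers, 2 of 7 higher in both, summed to 5740 and 3861 in sEphB4-Alb tumors and 3573 and 2952 in PBS tumors. Of 8 endothelial markers, 5 had a difference above 0 and 3 below 0, with 1 higher and 2 lower without overlap, a median of 0.14 and a sum of 3961 and 4244 in sEphB4-Alb tumors and 4236 and 5039 in PBS tumors. Red blood cell markers, highest in PBS tumor 1, summed to 2812 and 5163 in sEphB4-Alb tumors and 19864 and 5084 in PBS tumors, with 0 of 3 below both PBS tumors. The part of these cell types in the results for the G1 genes was not tested.

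With 2 tumors against 2, exact permutation of the labels gives a single gene a two-sided p of 0.333 at the smallest, so no such test was used for a call. The adjusted p of Ccnd2 lay between 0.166 and 1.00 over all alternatives run, and that of no gene of the set passed 0.05 in any of them.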

How the data were processed

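Total RNA of 4 tumors was labelled with biotin and hybridized to Illumina arrays. The authors deposited 18091 signal intensities per array, each for 1 gene symbol, on a linear scale. Their medians differ between arrays, so they had not been brought to a common median, and the lowest signals are 92.1 to 100.4. For background subtraction, other scaling and software, nothing is given in the sources used here. Another 8 columns of per-sample values (signals and detection p-values) were not used, since their names match no single sample.

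After normexp correction (offset 50), quantile normalization and log2, the groups were compared in R 4.3.3 by limma 3.58.1 (lmFit, eBayes) without covariates, and p-values were adjusted over all tested genes by Benjamini-Hochberg. The background limit was the mode of an array's signals plus the 95% normal quantile times the spread below the mode. How the mode was found (among signals under the 0.75 quantile) was chosen after the data were seen. The number of arrays, 2 per group with 2 residual degrees of freedom, limits the precision. Quantile normalization and the limma fit were tested on simulated data, without the background correction and the filter on dim genes.

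The 10 genes and all lists were chosen with earlier results of these data known. All 10 genes are named, with up to 6 tested genes of largest absolute difference per pathway list and the direct partners fixed in the plan. The sex-linked genes, the beta cell markers named and the pairs of genes were chosen after their values were seen. Symbols were matched through RefSeq names (14090 as current symbols, 3104 as synonyms), and no coordinates but those of the promoter windows were used. Alternatives left out the background correction, the normalization, the moderation or each tumor in turn, or used median scaling, other filters on dim genes, an intensity trend, a replicate block, a 1.5-fold threshold or an exact Mann-Whitney-Wilcoxon test. Figures were drawn with matplotlib 3.10.9.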

Additional observations from a re-analysis of the deposited data

How the results depend on the processing

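Over the alternatives, 116 differences of the 10 genes kept their sign and side of the threshold of the adjusted p and 14 changed sign. Other filters on dim genes, no moderation, an intensity trend, the exact test and the replicate block leave the difference itself unchanged. Many of the 116 therefore could not change sign. All 14 changes of sign came from the background correction, the scaling or leaving out a tumor. Ccne1 was 0.27 with median scaling, 0.60 with no normalization and 0.075 without sEphB4-Alb tumor 1. Cdkn2a was 0.31 with median scaling, 0.64 with no normalization and 0.32 without PBS tumor 1, and Trp53 was 0.26 with median scaling and 0.59 with no normalization. Cdkn1b was -0.0075 with no background correction, -0.41 without PBS tumor 2 and -0.08 without sEphB4-Alb tumor 1. Ccnd3 was -0.039 without PBS tumor 2 and -0.046 without sEphB4-Alb tumor 1, and Rb1 was -0.044 without PBS tumor 2. With each tumor left out, differences ranged over 0.22 to 0.41 for Ccnd1, 1.37 to 1.64 for Ccnd2, -0.046 to 0.095 for Ccnd3, -0.24 to 0.075 for Ccne1, 0.32 to 0.58 for Cdkn1a, -0.41 to 0.49 for Cdkn1b, -1.35 to -0.60 for Cdkn1c, -0.61 to 0.32 for Cdkn2a, -0.044 to 0.18 for Rb1 and -0.39 to -0.004 for Trp53.

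Of the counts, 50 stayed within 1.5 times the reported count and 44 did not. Genes at an unadjusted p under 0.05 numbered 3 of the 10 as reported, 5 with no normalization, 1 with no moderation, 0 with the exact Mann-Whitney-Wilcoxon test and 1 to 4 with each tumor left out. With the 2-fold threshold added, 1 of the 10 passed as reported, 3 with no normalization, 0 with the exact Mann-Whitney-Wilcoxon test, 2 with a 1.5-fold threshold and 1 to 2 with each tumor left out. Over all genes, 0 passed the adjusted p as reported and 1 passed with no moderation. At an unadjusted p, 393 genes were higher and 277 lower as reported, against 833 and 25 with median scaling, 1915 and 4 with no normalization, 604 and 543 with no filter on dim genes, and 0 and 0 with the exact Mann-Whitney-Wilcoxon test. With each tumor left out these counts were 216 to 1137 and 67 to 1355. With the 2-fold threshold added, 102 were higher and 17 lower as reported, against 67 and 7 with no background correction, 299 and 7 with median scaling, 1128 and 3 with no normalization, 32 and 8 with no moderation, 0 and 0 with the exact Mann-Whitney-Wilcoxon test, and 268 and 123 with a 1.5-fold threshold. Requiring signal above background on all 4 arrays left 66 higher. With each tumor left out these counts were 98 to 301 and 33 to 176. The counts of 0 with the exact test were fixed in advance, since its smallest p is 0.333. A 1.5-fold threshold can only keep or add genes. The cause of the other changes was not tested.

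Same-numbered tumors of the 2 groups share only a number (correlation of their differences 0.04). With the replicate number as a block, 182 genes were lower at an unadjusted p and 155 were higher at 2-fold. Among the 10 genes, the unadjusted limma p with the replicate block was 6.85e-04 for Ccnd2, 0.0151 for Cdkn1c and 0.0926 for Cdkn1a. Leaving out a tumor leaves a group with 1 sample, which is assumed to vary like the other group. The other deposited table could not be run, since its columns match no single sample. Cdkn1b, near background, is limited by its dim signal.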
